A study of Mus musculus with 6 samples.

Results

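The imprinted genes described here are 41 mouse genes of 18 imprinted domains. They are listed as expressed mainly or only from the allele of 1 parent, in some cases only in certain tissues or transcripts. Whether each is expressed from 1 allele in fetal lung was not tested. The genes were chosen by symbol from a list of mouse imprinted genes that left out Igf2, Igf2r and Dcn. The rule used none of their values, though earlier results of these data were known when it was made. All 41 were found among the 24521 genes of the deposited normalized table. The tissue was fetal mouse lung at stage E18.5, taken whole, in 6 samples: 3 of the genotype Mll3FDC/FDC, which the labels call Mll3 KO, and 3 wild type. Mll3, listed as Kmt2c, encodes a histone H3 lysine 4 methyltransferase that works mainly at enhancers. The labels give no treatment, strain or meaning of the allele's letters, and do not say whether the samples came from separate embryos, so p-values cover only how far these samples differ.

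Imprinted genes carry DNA methylation that was set in the egg or in sperm at control regions, and the embryo keeps it on 1 parental copy by way of proteins such as ZFP57, which binds a methylated hexamer, TGCCGC. Many of these genes set fetal growth: several expressed from the mother's copy restrain it and several expressed from the father's copy promote it. Most lie in clusters in which a long non-coding RNA and the protein-coding genes come from opposite parental copies. The reads were not assigned to parental alleles, so each level below is the sum of both copies.

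The libraries held between 20158689 and 23305306 reads assigned to genes, and 19042 genes passed the filter on low counts, all 41 imprinted genes among them. Kmt2c had 143, 171 and 159 reads per 1000000 (CPM) in Mll3 KO lungs, against 162, 179 and 162 CPM in wild-type lungs, and a count over the whole gene does not check an allele that leaves most of the transcript in place. Mll3 KO 3 held 59951 Xist reads and 4 Y-linked reads, and elsewhere Xist drew 6 to 27 reads and Y-linked genes 7414 to 9300. Mll3 KO 2 and wild type 1 held RNA of tissue outside the lung: their 10 skeletal muscle markers summed to 564 CPM in Mll3 KO 2 and 574 CPM in wild type 1, against 16.0 to 23.0 CPM in the other 4 libraries, and all 10 were higher in these libraries than in the others. Their 8 neural markers, which include genes of peripheral nerve and ganglia, summed to 64.9 CPM in Mll3 KO 2 and 47.0 CPM in wild type 1, against 23.2 to 28.3 CPM. Mll3 KO 2 was also the highest for 6 liver markers, with a sum of 62.4 CPM against 7.32 to 23.6 CPM elsewhere. The 10 mesenchymal markers summed to 5796 CPM in Mll3 KO 2 and 6072 CPM in wild type 1, against 4442 to 5247 CPM in the other 4 libraries. Of these 10, 5 were higher in both libraries than in the other 4. In bulk tissue, fewer cells of a type and less RNA per cell cannot be told apart. The titles begin with AK7986 (Mll3 KO 1, wild type 1 and 2) or AK7987 (Mll3 KO 2 and 3, wild type 3), and what these prefixes mean is not given in the sources used here.

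RefSeq promoter windows of these genes, 300 bases long (250 before and 50 after a listed start, build GRCm38.p6, the same assembly as the mm10 coordinates of the files), were searched for TGCCGC on both strands. The windows were placed by listed starts, not by the control regions of imprinting. Windows were found for 34 of the 41 genes, 49 windows in all. Of these 49 windows, 11 held TGCCGC on either strand (22.4%), against 3813 of the 32851 windows of all genes (11.6%), and 4 of them held it at least 2 times (8.16%, against 1.53% of all windows). The ratio of observed to expected CpG reached 0.6 in 26 of the 49 windows (53.1%) and in 35.8% of all windows. The windows with most copies were an upstream window of Zdbf2 with 3, the Nap1l5 window with 2 and 2 overlapping windows of Mest with 2 each. The 2 Mest windows hold the same hexamers but count as separate windows in the shares above. The Nnat window and the upstream Meg3 window held 1 each. The Magel2 window is shown because Magel2 had the lowest p-value of the 41 genes, and no TGCCGC was found in it. In the sequences, which run 5′ to 3′ on the strand of the gene, capitals mark TGCCGC or its reverse complement; a match is a description of these letters, not a bound site.
Zdbf2 upstream window, chr1:63200108-63200407, plus strand: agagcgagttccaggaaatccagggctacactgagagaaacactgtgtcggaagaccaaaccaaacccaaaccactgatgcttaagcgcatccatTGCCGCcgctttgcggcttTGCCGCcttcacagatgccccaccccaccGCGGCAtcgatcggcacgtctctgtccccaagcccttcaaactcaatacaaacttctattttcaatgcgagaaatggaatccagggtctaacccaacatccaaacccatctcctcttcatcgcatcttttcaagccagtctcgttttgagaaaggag
Nap1l5 window, chr6:58907077-58907376, minus strand: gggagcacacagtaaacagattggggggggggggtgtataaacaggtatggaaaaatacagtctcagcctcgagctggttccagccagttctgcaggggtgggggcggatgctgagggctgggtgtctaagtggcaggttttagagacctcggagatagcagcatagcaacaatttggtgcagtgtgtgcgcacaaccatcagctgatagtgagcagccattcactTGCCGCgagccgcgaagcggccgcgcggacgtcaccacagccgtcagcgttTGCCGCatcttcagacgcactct
Meg3 upstream window, chr12:109540746-109541045, plus strand: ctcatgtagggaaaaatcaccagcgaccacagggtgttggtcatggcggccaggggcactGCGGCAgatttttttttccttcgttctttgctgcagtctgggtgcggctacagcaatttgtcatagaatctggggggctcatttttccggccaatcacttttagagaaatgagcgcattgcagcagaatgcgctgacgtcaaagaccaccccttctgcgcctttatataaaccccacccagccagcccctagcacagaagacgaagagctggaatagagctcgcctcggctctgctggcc
Nnat window, chr2:157559828-157560127, plus strand: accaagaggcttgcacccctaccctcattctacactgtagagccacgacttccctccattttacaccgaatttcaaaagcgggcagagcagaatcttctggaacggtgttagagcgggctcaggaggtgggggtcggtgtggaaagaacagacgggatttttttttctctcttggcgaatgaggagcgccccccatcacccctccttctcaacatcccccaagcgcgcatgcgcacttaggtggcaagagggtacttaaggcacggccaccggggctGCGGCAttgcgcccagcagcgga
Magel2 window, chr7:62376729-62377028, plus strand: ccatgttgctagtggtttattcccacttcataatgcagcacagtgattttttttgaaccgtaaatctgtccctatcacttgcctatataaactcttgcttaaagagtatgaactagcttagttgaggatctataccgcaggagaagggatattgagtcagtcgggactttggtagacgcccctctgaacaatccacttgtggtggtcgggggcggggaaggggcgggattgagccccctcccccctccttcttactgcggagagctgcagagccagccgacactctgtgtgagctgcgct

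MicroRNA hairpins lie inside several of the genes, 14 within the span of Mirg, 3 within Rian, and 1 each within Meg3, H19, Mest and Usp29, all on the strand of the gene. Rtl1 has 1 on its own strand and 6 on the opposite strand, from which, in mouse, a maternal transcript yields microRNAs that cleave the paternal Rtl1 messenger RNA. They are shown because their reads could otherwise be taken for Rtl1, whose level differed most between libraries. Counting was strand-specific, and each of these 6 hairpins drew 0 to 13 reads per library. These are not few beside Rtl1: in wild type 2 the hairpin Mir434 alone drew 12 reads, more than Rtl1 itself. Sequencing of polyadenylated RNA does not measure mature microRNAs. Capitals mark the seed, bases 2 to 8 from the 5′ end, and no 2 of the 6 seeds are the same.
miR-431-5p, chr12:109590459-109590479, plus strand: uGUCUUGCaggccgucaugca
miR-433-3p, chr12:109591781-109591802, plus strand: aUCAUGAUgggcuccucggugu
miR-127-3p, chr12:109592888-109592909, plus strand: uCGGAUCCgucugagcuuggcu
miR-434-3p, chr12:109594565-109594586, plus strand: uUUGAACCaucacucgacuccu
miR-432, chr12:109595006-109595028, plus strand: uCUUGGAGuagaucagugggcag
miR-136-5p, chr12:109595331-109595352, plus strand: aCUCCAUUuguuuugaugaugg

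The imprinted genes were expressed at widely different levels: in CPM per kilobase of exon (RPKM), H19 averaged 556 in Mll3 KO lungs and 511 in wild-type lungs, and Usp29 0.235 in Mll3 KO lungs and 0.170 in wild-type lungs. Between the genotypes, 0 of the 41 genes passed an adjusted p of 0.05 in either direction (edgeR's quasi-likelihood test, adjusted over all 19042 genes). Over all genes tested, 12 were called higher (0.063%) and 58 lower (0.305%). At an unadjusted p under 0.05 there were 2 of the 41 genes, Magel2 and Ppp1r9a, against 10.7% of all genes tested. DESeq2, limma voom and limma on the normalized values also called 0 of the 41, though DESeq2 gave no adjusted p for Magel2 and Nap1l5. The median log2 fold change of the 41 genes was 0.05, with 26 above and 15 below 0, and that of all genes tested was 0.01. Without Mll3 KO 2 the median of the 41 was −0.01. Of the 41 genes, 32 lay within 0.25 of 0 on the log2 scale (78.0%), as did 76.1% of all genes. The 18 genes known as maternally expressed had a median of 0.0016 and the 22 known as paternally expressed a median of 0.10, with 0 called in each class; Gnas makes transcripts of both kinds.

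**Figure D1:**
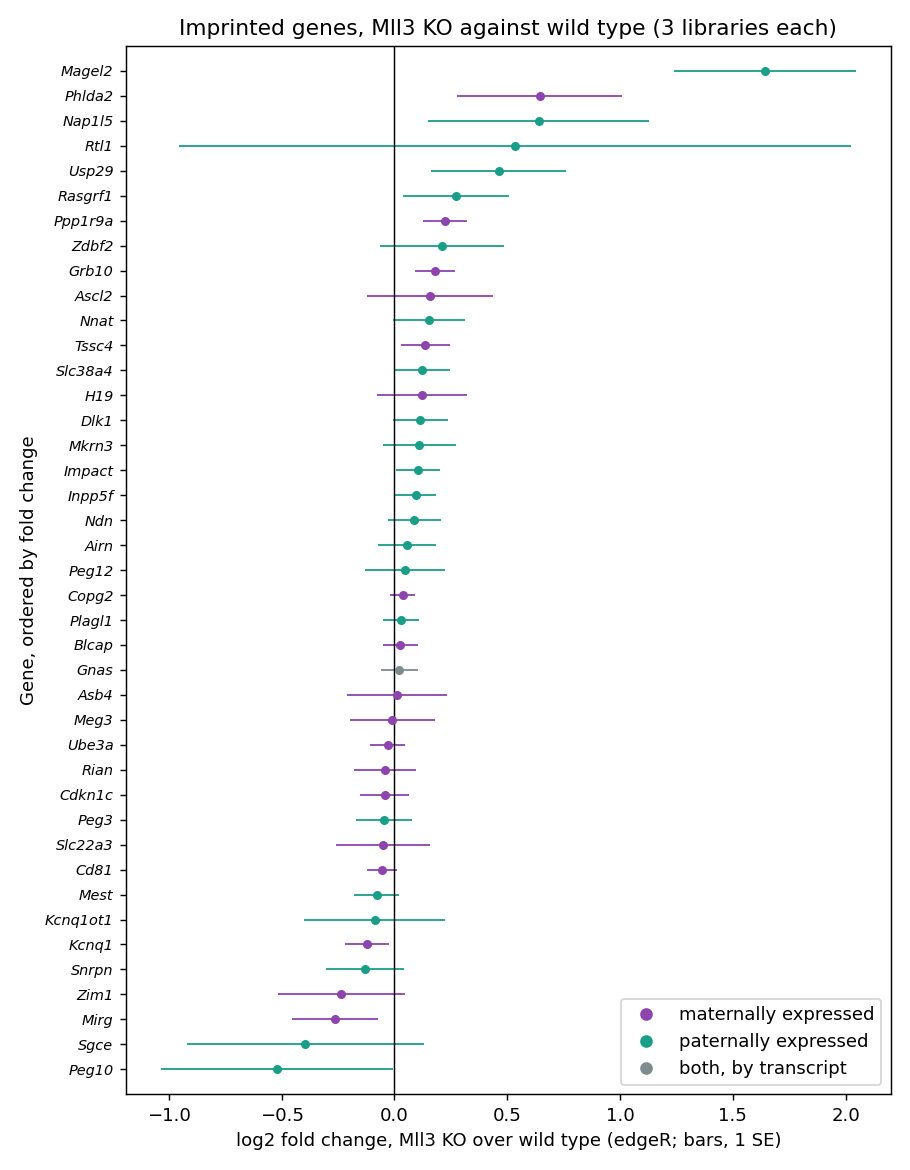
The log2 fold change of each imprinted gene, Mll3 KO over wild type, with its standard error, coloured by the parental copy the gene is known to be expressed from. The estimates run from −0.52 for Peg10 to 1.64 for Magel2, 32 of the 41 lie within 0.25 of 0, and the widest bar is that of Rtl1.

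Of the 7 growth regulators and signalling proteins, 6 had an estimate above 0 and 1 below, and 0 were called. Gnas, which encodes the stimulatory G protein alpha subunit, had 1877, 1791 and 1969 CPM in Mll3 KO lungs, against 1849, 1897 and 1807 CPM in wild-type lungs. Its libraries interleaved, and the log2 fold change was 0.02 ± 0.08 (SE, adjusted p = 0.957 by edgeR). Cdkn1c, the cyclin-dependent kinase inhibitor p57, had 268, 268 and 248 CPM in Mll3 KO lungs, against 313, 226 and 269 CPM in wild-type lungs. All 3 Mll3 KO values fell inside the wild-type range, with a log2 fold change of −0.04 ± 0.11 (SE). Dlk1, a membrane protein related to Notch ligands, had 1053, 1393 and 1425 CPM in Mll3 KO lungs, against 1289.7, 1099 and 1184 CPM in wild-type lungs. Mll3 KO 1 was the lowest of the 6 libraries and the other Mll3 KO libraries the highest, and the log2 fold change was 0.12 ± 0.12 (SE).

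Grb10, an adaptor that restrains insulin and IGF receptor signalling, had 822, 713 and 693 CPM in Mll3 KO lungs, against 619.9, 686 and 662 CPM in wild-type lungs. Every Mll3 KO library was above every wild-type library, which held in this direction for Grb10 and Magel2 among the 41 genes and for 8.6% of all genes tested. The log2 fold change of Grb10 was 0.18 ± 0.09 (SE, adjusted p = 0.513 by edgeR), and it was 0.33 among libraries with the prefix AK7986 and 0.09 among those with AK7987. Phlda2, which restrains growth of the placenta, had 1.63, 1.47 and 1.31 CPM in Mll3 KO lungs, against 1.31, 0.436 and 1.08 CPM in wild-type lungs. These rest on 28 to 39 reads per Mll3 KO library and 10 to 29 per wild-type library, and wild type 2 was the lowest by far. Its log2 fold change was 0.64 ± 0.36 (SE, adjusted p = 0.578 by edgeR). Rasgrf1, an exchange factor that activates Ras, had 3.35, 5.87 and 4.76 CPM in Mll3 KO lungs, against 4.25, 4.31 and 2.96 CPM in wild-type lungs, with a log2 fold change of 0.27 ± 0.24 (SE). Without Mll3 KO 2, its highest library, it was 0.07, and it was −0.35 within AK7986 and 0.84 within AK7987. Peg12, a relative of the GSK3-binding FRAT proteins, averaged 7.55 CPM in Mll3 KO lungs and 7.32 CPM in wild-type lungs, ranged from 6.35 to 8.96 CPM and had a log2 fold change of 0.05.

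Of the 6 non-coding RNAs, 2 had an estimate above 0 and 4 below, and 0 were called. Per kilobase, H19 led all 41 genes, Meg3 averaged 78.3 RPKM in Mll3 KO lungs and 78.8 RPKM in wild-type lungs, and Kcnq1ot1, counted over a much longer annotation, 1.43 RPKM in Mll3 KO lungs and 1.51 RPKM in wild-type lungs. H19, the maternal RNA that shares its enhancers with Igf2, had 1524, 1525 and 1055 CPM in Mll3 KO lungs, against 1594, 1076 and 1103 CPM in wild-type lungs. The 6 libraries fell into 3 at 1524 to 1594 CPM and 3 at 1055 to 1103 CPM, with both genotypes in each set, and the log2 fold change was 0.12 ± 0.20 (SE, adjusted p = 0.88 by edgeR). Meg3, the maternal RNA of the Dlk1-Dio3 domain, had 979, 1584 and 1687 CPM in Mll3 KO lungs, against 1430.0, 1349.7 and 1497 CPM in wild-type lungs. Mll3 KO 1 was the lowest library and the other Mll3 KO libraries were the highest, so the log2 fold change was −0.01 ± 0.19 (SE). Without Mll3 KO 1 it was 0.19 (adjusted p = 0.458 by edgeR; 0.458 to 1.000 over all alternatives).

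Rian and Mirg, which host small nucleolar RNAs and microRNAs downstream of Meg3 on the same strand, had the same order of Mll3 KO libraries. Rian had 529, 765 and 788 CPM in Mll3 KO lungs, against 723, 694 and 726 CPM in wild-type lungs, and Mll3 KO 1 stood apart from the other 5 libraries. Mirg had 28.4, 41.5 and 49.8 CPM in Mll3 KO lungs, against 51.8, 47.7 and 44.1 CPM in wild-type lungs, with a log2 fold change of −0.26 ± 0.19 (SE, adjusted p = 0.689 by edgeR). Its log2 fold change was −0.81 among libraries with the prefix AK7986, which hold Mll3 KO 1, and 0.05 among those with AK7987. Kcnq1ot1, a paternal RNA that silences its neighbours in cis, had 81.5, 172 and 144 CPM in Mll3 KO lungs, against 117, 149 and 158 CPM in wild-type lungs. Mll3 KO 1 was again the lowest and Mll3 KO 2 the highest, and the log2 fold change was −0.09 ± 0.31 (SE). Airn, the paternal RNA that silences Igf2r and its neighbours, averaged 61.7 CPM in Mll3 KO lungs and 59.3 CPM in wild-type lungs, ranged from 52.0 to 69.4 CPM and had a log2 fold change of 0.06.

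Mll3 KO 1 held the lowest level of the 6 libraries for 12 of the 41 genes, namely Airn, Dlk1, Impact, Kcnq1, Kcnq1ot1, Meg3, Mirg, Peg3, Rian, Slc22a3, Ube3a and Zim1, against 23.4% of all genes tested (4462). It held the highest for 8, Copg2, Grb10, Mest, Nnat, Peg12, Phlda2, Sgce and Tssc4, against 26.5% of all genes. Among the 6 non-coding RNAs it was the lowest for 5, H19 being the exception. The unlinked nuclear RNAs Malat1 and Neat1, which are not imprinted, were also lowest in Mll3 KO 1. Malat1 had 2202, 2879 and 2941 CPM in Mll3 KO lungs, against 2657, 2950.2 and 3221 CPM in wild-type lungs, and Neat1 had 202, 388 and 439 CPM in Mll3 KO lungs, against 383, 364 and 494 CPM in wild-type lungs. In Mll3 KO 1 the sum of 8 cell cycle markers was the highest (1061 CPM, against 635 to 768 CPM) and all 8 were highest there. The sum of 10 mesenchymal markers was the lowest (4442 CPM, against 4784 to 6072 CPM), though 3 of the 10 were lowest in this library and 1 was highest, and so was that of 9 lung epithelial markers (15549 CPM, against 15695 to 18591 CPM), of which 4 were lowest and 1 highest. Their part in the level of the non-coding RNAs was not tested.

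**Figure D2:**
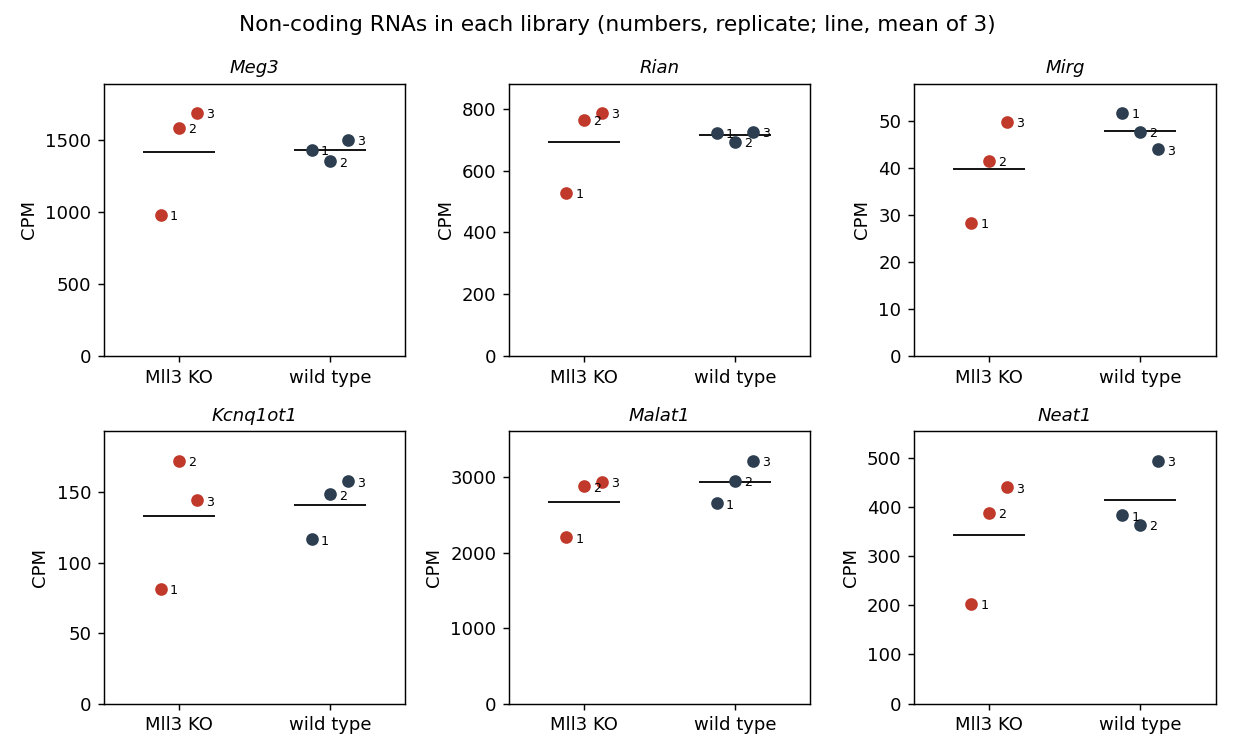
Levels in CPM of 4 imprinted non-coding RNAs and of Malat1 and Neat1 in each Mll3 KO library (left) and wild-type library (right), numbered by replicate, with a line at the mean of 3. Mll3 KO 1 is the lowest point in all 6 panels, at 979 CPM for Meg3 and 202 CPM for Neat1. H19, Snhg14 and Peg13, for which another library was lowest, are not shown.

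Of the transcription regulators, Plagl1, a zinc finger factor that activates several other imprinted genes, averaged 345 CPM in Mll3 KO lungs and 338 CPM in wild-type lungs, ranged from 321 to 380.1 CPM and had a log2 fold change of 0.03. Peg3, a zinc finger protein of the paternal copy, averaged 439 CPM in Mll3 KO lungs and 453 CPM in wild-type lungs, ranged from 356 to 527 CPM and had a log2 fold change of −0.05. Both of its extremes were Mll3 KO libraries. Zim1, the maternal zinc finger gene next to Peg3, averaged 45.5 CPM in Mll3 KO lungs and 53.5 CPM in wild-type lungs, with a range of 33.4 to 65.1 CPM and a log2 fold change of −0.24 ± 0.28 (SE). Ascl2, a trophoblast transcription factor, stood near 1 CPM in every library (1.13 CPM on average in Mll3 KO lungs and 1.01 CPM in wild-type lungs, range 0.813 to 1.32 CPM), on 18 to 27 reads each, with a log2 fold change of 0.16.

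The genes of the ubiquitin system and the MAGE family held the lowest p-value of all 41. Magel2, a MAGE protein of the Prader-Willi region that works with a ubiquitin ligase in endosomal sorting, had 31, 40 and 22 reads in Mll3 KO lungs, against 16, 7 and 7 reads in wild-type lungs. That is 1.30, 1.96 and 1.03 CPM in Mll3 KO lungs, against 0.723, 0.305 and 0.329 CPM in wild-type lungs. The genotypes did not overlap, and Mll3 KO 2 and wild type 1, the libraries with muscle and nerve RNA, were the highest of their own genotype. The log2 fold change was 1.64 ± 0.40 (SE, unadjusted p = 0.00227, adjusted p = 0.148 by edgeR), 1.34 among libraries with the prefix AK7986 and 2.18 among those with AK7987. Leaving out both libraries with muscle RNA gave 1.86 (adjusted p = 0.252). With no filter on low counts the adjusted p was 0.00664, and over all alternatives it ran from 0.00664 to 0.438.

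The neighbours of Magel2 in the same domain had estimates closer to 0. Ndn, another MAGE protein, averaged 47.5 CPM in Mll3 KO lungs and 44.7 CPM in wild-type lungs, ranged from 38.2 to 51.5 CPM and had a log2 fold change of 0.09. Mkrn3, a makorin RING finger protein, averaged 4.15 CPM in Mll3 KO lungs and 3.84 CPM in wild-type lungs, ranged from 3.61 to 4.53 CPM and had a log2 fold change of 0.11. Ube3a, a ubiquitin ligase of that domain known for maternal expression in neurons, averaged 208 CPM in Mll3 KO lungs and 213 CPM in wild-type lungs, ranged from 189.6 to 222 CPM and had a log2 fold change of −0.03. Whether the Magel2 difference is larger than theirs was not tested.

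Usp29, a deubiquitinase that starts 147 bases from Peg3 on the opposite strand, had 3.06, 6.21 and 3.45 CPM in Mll3 KO lungs, against 3.88, 2.35 and 2.96 CPM in wild-type lungs. Mll3 KO 2 was the highest and wild type 1 came next, and the log2 fold change was 0.46 ± 0.30 (SE, adjusted p = 0.637 by edgeR). It was 0.09 without Mll3 KO 2, −0.03 within AK7986 and 0.71 within AK7987. Asb4, the substrate adaptor of a ubiquitin ligase, averaged 3.19 CPM in Mll3 KO lungs and 3.16 CPM in wild-type lungs, ranged from 2.63 to 4.06 CPM and had a log2 fold change of 0.01.

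Of the 6 membrane proteins and transporters, 2 had an estimate above 0 and 4 below, and 0 were called. Cd81, a tetraspanin, had 317, 292 and 309 CPM in Mll3 KO lungs, against 318, 326 and 311 CPM in wild-type lungs, with a log2 fold change of −0.06 ± 0.07 (SE). Nnat, a small protein of the endoplasmic reticulum, had 218, 143 and 146 CPM in Mll3 KO lungs, against 152, 151 and 152 CPM in wild-type lungs. Mll3 KO 1 stood above the other 5 libraries, and the log2 fold change was 0.15 ± 0.16 (SE) over all libraries and −0.07 without it. Kcnq1, a potassium channel whose gene Kcnq1ot1 crosses on the opposite strand, had 12.8, 13.7 and 14.8 CPM in Mll3 KO lungs, against 14.9, 15.1 and 15.0 CPM in wild-type lungs. It was the gene of the 41 with every Mll3 KO library below every wild-type library, as were 8.45% of all genes, by a margin between Mll3 KO 3 and wild type 1 that is small beside the spread of the Mll3 KO libraries. The log2 fold change of Kcnq1 was −0.12 ± 0.10 (SE, adjusted p = 0.713 by edgeR), with −0.23 within AK7986 and −0.07 within AK7987. Slc22a3, an organic cation transporter, averaged 4.07 CPM in Mll3 KO lungs and 4.20 CPM in wild-type lungs, ranged from 2.89 to 4.89 CPM and had a log2 fold change of −0.05. Slc38a4, an amino acid transporter, averaged 39.4 CPM in Mll3 KO lungs and 36.1 CPM in wild-type lungs, ranged from 32.2 to 46.7 CPM and had a log2 fold change of 0.12.

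Sgce, which encodes epsilon-sarcoglycan, was low in 1 library only. It had 64.1, 16.6 and 52.8 CPM in Mll3 KO lungs, against 61.9, 59.6 and 54.3 CPM in wild-type lungs. Mll3 KO 2 held 339 Sgce reads where the other 5 libraries held 1131 to 1531, a level 0.283 times the mean of those 5, and of the other Mll3 KO libraries, Mll3 KO 1 lay just above and Mll3 KO 3 just below the wild-type range. The log2 fold change was −0.39 ± 0.53 (SE, adjusted p = 0.853 by edgeR), and it was 0.04 without Mll3 KO 2 and wild type 1. Of the 13146 genes that averaged 5 CPM or more over the other 5 libraries, 3 were more than 2-fold below the lowest of those libraries in Mll3 KO 2 (0.0228%), namely Sgce and the interferon-induced genes Ifi44 and Oas2. Sgce was the single case among the 31 imprinted genes at that level, and it was picked out after its values were seen.

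Peg10, a gene derived from a retrotransposon that is needed for the placenta, starts 99 bases from Sgce on the opposite strand, and both come from the paternal copy. Peg10 had 22.6, 8.66 and 19.4 CPM in Mll3 KO lungs, against 37.7, 18.3 and 16.8 CPM in wild-type lungs. Mll3 KO 2 was again the lowest, at 0.514 times the next library, and wild type 1 was the highest. The log2 fold change was −0.52 ± 0.51 (SE, adjusted p = 0.789 by edgeR), and 0.26 without Mll3 KO 2 and wild type 1. Other genes of the region with at least 5 CPM stood in Mll3 KO 2 at 0.79 to 1.28 times the mean of the other 5 libraries, apart from Pon1. Casd1, the nearest gene beyond Sgce and 1 of the further imprinted genes below, had 111 CPM in each of the 3 Mll3 KO libraries. It had 104, 106 and 101 CPM in wild-type lungs. Pon1 had 12.6, 13.3 and 24.1 CPM in Mll3 KO lungs, against 43.8, 28.9 and 25.9 CPM in wild-type lungs, and was as low in Mll3 KO 1 as in Mll3 KO 2. Ppp1r9a, which encodes neurabin and lies on the far side of Peg10, was highest in Mll3 KO 2, with 201, 263 and 248 CPM in Mll3 KO lungs, against 197, 213 and 201 CPM in wild-type lungs. Its log2 fold change was 0.22 ± 0.10 (SE, unadjusted p = 0.0425, adjusted p = 0.439 by edgeR). It was −0.02 within AK7986 and 0.35 within AK7987, each a ratio of means with a single library on 1 side.

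**Figure D3:**
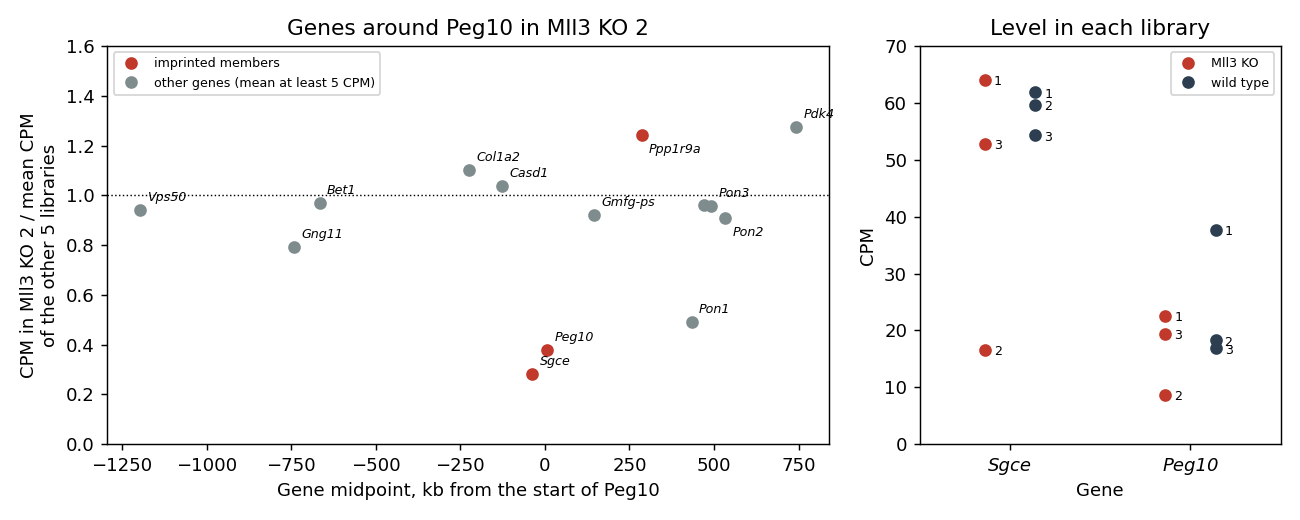
Left, the level in Mll3 KO 2 over the mean of the other 5 libraries for genes around Peg10 with a mean of at least 5 CPM. They are placed by the distance of their midpoint from the start of Peg10 in kb, with genes of the 41 in red. Casd1, Pon2 and Pon3, in grey, are on the list of further imprinted genes. Right, CPM of Sgce and Peg10 in each library, numbered by replicate; Mll3 KO 2 is lowest for both, at 16.6 and 8.66 CPM.

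Rtl1, a retrotransposon-derived gene of the paternal copy that works in the placenta and in fetal muscle of the mouse, varied most of the 41 genes. It had 8, 83 and 17 reads in Mll3 KO lungs, against 70, 5 and 3 reads in wild-type lungs, which is 0.335, 4.06 and 0.793 CPM in Mll3 KO lungs, against 3.16, 0.218 and 0.141 CPM in wild-type lungs. The high libraries, Mll3 KO 2 and wild type 1, are those with skeletal muscle RNA, 1 of each genotype, and the log2 fold change between genotypes was 0.53 ± 1.49 (SE). Within AK7986 it was −2.34 and within AK7987 4.10, since each prefix holds 1 of these libraries. Of the 16914 genes that averaged 1 CPM or more over all 6 libraries, 50 were in both libraries more than 3-fold above the highest of the other 4 (0.296%). Rtl1 was 1 of them, the only case among the 39 imprinted genes at that level. It was under 1 CPM in each of the other 4 libraries and passed the floor only through Mll3 KO 2 and wild type 1. The share is therefore a description and lends the Rtl1 pattern no weight. In a looser count, Mll3 KO 2 and wild type 1 both lay above the other 4 libraries for 7 of the 41 genes, against 5.91% of all genes tested. These were Asb4, H19, Nap1l5, Rtl1, Usp29, Zdbf2 and Zim1, though H19 was nearly as high in Mll3 KO 1 as in Mll3 KO 2. Mll3 KO 2 was the highest of the 6 libraries for 18 of the 41 genes, against 18.4% of all genes. The part of muscle, nerve, liver or mesenchymal RNA in these levels was not tested.

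**Figure D4:**
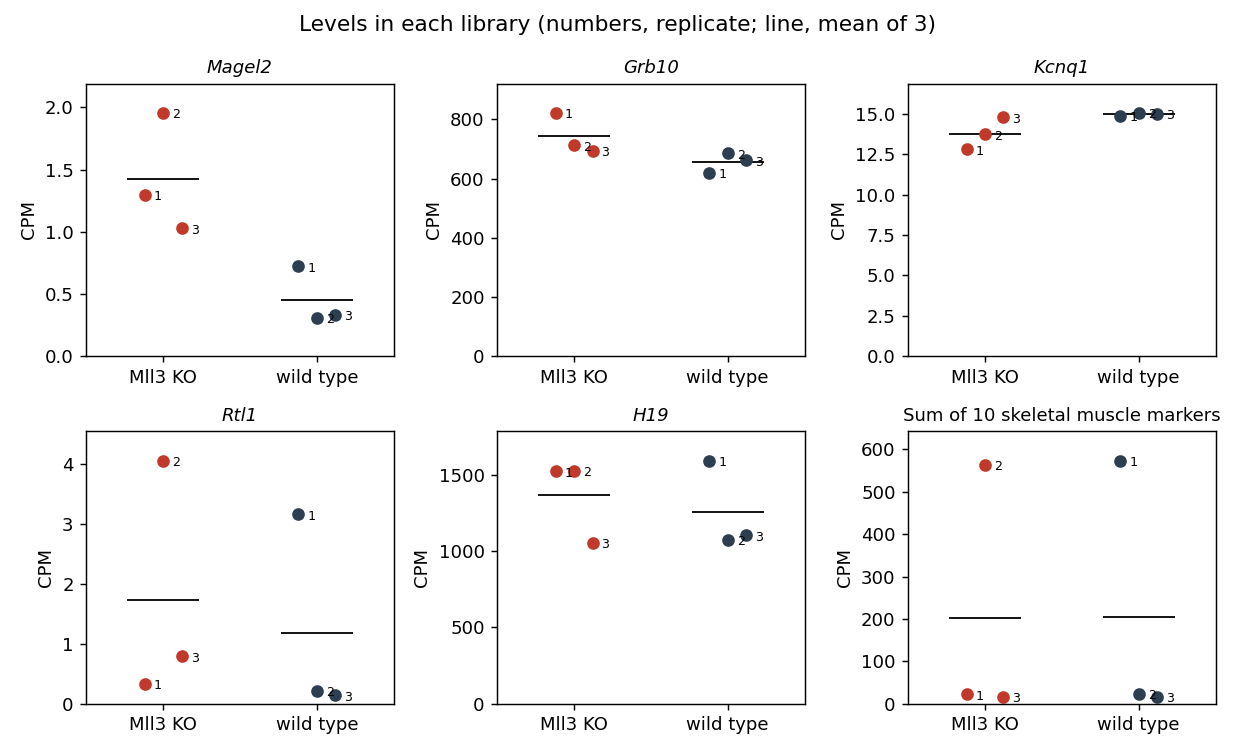
Levels in CPM of Magel2, Grb10, Kcnq1, Rtl1 and H19 and the sum of 10 skeletal muscle markers in each Mll3 KO library (left) and wild-type library (right), numbered by replicate, with a line at the mean of 3. The genotypes do not overlap for the 3 upper genes, and Rtl1 is high in the libraries with 564 and 574 CPM of muscle markers, Mll3 KO 2 and wild type 1.

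Among the remaining intracellular proteins, Mest, which has the fold of a hydrolase, was the second in level per kilobase after H19. Mest had 1217, 983 and 1025 CPM in Mll3 KO lungs, against 1179, 1169 and 1058 CPM in wild-type lungs, with a log2 fold change of −0.08 ± 0.10 (SE). Copg2, a coat protein subunit that overlaps the end of Mest on the opposite strand, varied least of the 41 genes, from 92.4 to 96.9 CPM, with means of 95.8 CPM in Mll3 KO lungs and 93.4 CPM in wild-type lungs and a log2 fold change of 0.04. Tssc4, a factor of spliceosome assembly, had 28.4, 21.7 and 22.7 CPM in Mll3 KO lungs, against 22.2, 22.0 and 22.1 CPM in wild-type lungs. Mll3 KO 1 alone stood apart, and the log2 fold change was 0.14 ± 0.11 (SE). Nap1l5, a relative of nucleosome assembly proteins, had 0.586, 1.61 and 0.513 CPM in Mll3 KO lungs, against 0.813, 0.479 and 0.423 CPM in wild-type lungs. It rests on 9 to 33 reads per library, and its log2 fold change was 0.64 ± 0.49 (SE), or −0.06 without Mll3 KO 2.

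Snrpn, a core protein of spliceosomal particles, averaged 5.17 CPM in Mll3 KO lungs and 5.66 CPM in wild-type lungs, ranged from 4.57 to 6.54 CPM and had a log2 fold change of −0.13. As 27.3% of its exonic bases are shared with other annotated genes on its strand, reads there could not be given to Snrpn, and its level is uncertain. Blcap, a small membrane-associated protein whose gene encloses Nnat, averaged 59.0 CPM in Mll3 KO lungs and 57.9 CPM in wild-type lungs, ranged from 54.6 to 64.3 CPM and had a log2 fold change of 0.03. Zdbf2, a zinc finger protein, averaged 33.7 CPM in Mll3 KO lungs and 29.1 CPM in wild-type lungs, ranged from 22.6 to 44.0 CPM and had a log2 fold change of 0.21 ± 0.27 (SE). Impact, an inhibitor of the GCN2 stress kinase, averaged 42.1 CPM in Mll3 KO lungs and 39.1 CPM in wild-type lungs, ranged from 36.5 to 47.4 CPM and had a log2 fold change of 0.10. Inpp5f, a phosphoinositide phosphatase, averaged 25.3 CPM in Mll3 KO lungs and 23.7 CPM in wild-type lungs, ranged from 22.5 to 26.9 CPM and had a log2 fold change of 0.10.

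**Figure D5:**
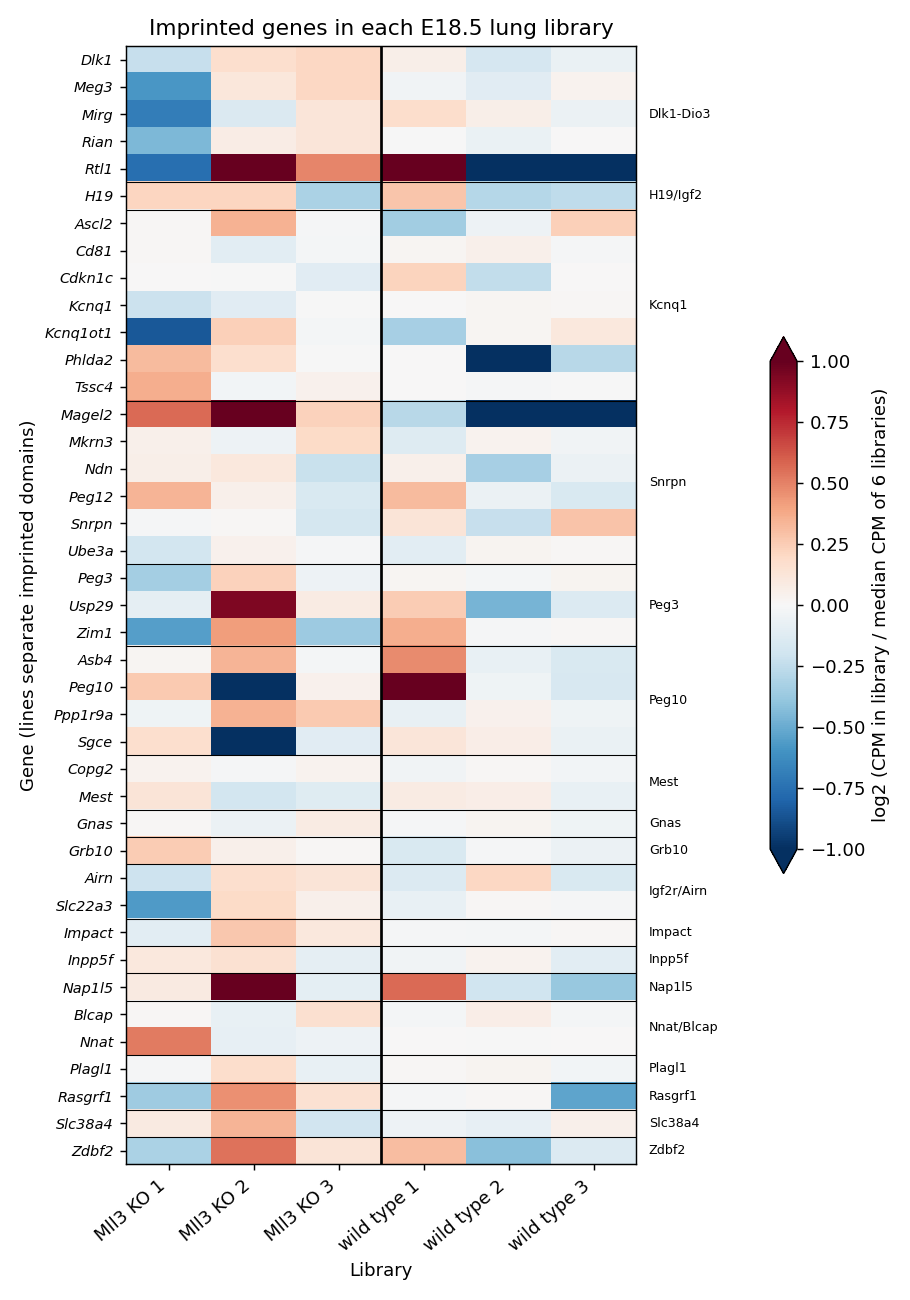
The level of each imprinted gene in each library as the log2 ratio to its median over the 6 libraries, Mll3 KO to the left of wild type, with genes grouped by domain and colours ending at −1 and 1. The darkest cells are in the rows of Rtl1, Sgce, Peg10, Magel2, Phlda2 and Nap1l5, and Mll3 KO 1 is paler but the lowest library for Kcnq1ot1, Mirg, Meg3 and Rian, at 81.5, 28.4, 979 and 529 CPM.

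Other imprinted genes and a list of imprint regulators also showed 0 calls. The regulators are genes linked to setting, keeping or removing imprints or DNA methylation. Of 36 further imprinted genes tested, 10 were above and 26 below 0, with a median log2 fold change of −0.09, against 0.01 for all genes. Those with the lowest p were Sfmbt2, a Polycomb protein (log2 fold change 0.47 ± 0.15, SE), Adam23, a membrane protein of the disintegrin family (−0.92 ± 0.32, SE), and Snhg14, the long RNA that crosses Ube3a (0.34 ± 0.13, SE), and 3 of the 36 had an unadjusted p under 0.05 by edgeR, against 10.7% of all genes. Adam23 had 4.39, 9.83 and 8.54 CPM in Mll3 KO lungs, against 17.7, 10.4 and 14.8 CPM in wild-type lungs, so every Mll3 KO library was lower, as for 8.45% of all genes. Of 26 imprint regulators tested, 23 were above 0 and 3 below, with a median of 0.11, where 10024 of all 19042 genes were above 0. Of the 26, 6 had an unadjusted p under 0.05 by edgeR, against 10.7% of all genes. The lowest were those of Tet1, which oxidises methylcytosine, Uhrf1, which brings DNMT1 to replicated DNA, and Dnmt1, the maintenance methyltransferase.

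Tet1 had 45.1, 55.1 and 44.9 CPM in Mll3 KO lungs, against 35.9, 40.3 and 37.8 CPM in wild-type lungs. The log2 fold change of Tet1 was 0.35 ± 0.10 (SE, adjusted p = 0.202 by edgeR). Every Mll3 KO library was higher for Tet1, and also for Uhrf1, Dnmt1, Zfp445, Ehmt1 and Suz12 of this list, as for 8.6% of all genes. Uhrf1 had 41.1, 33.0 and 28.1 CPM in Mll3 KO lungs, against 24.1, 25.8 and 27.0 CPM in wild-type lungs, and a log2 fold change of 0.41 ± 0.13 (SE, adjusted p = 0.27). Dnmt1 had 144, 117 and 117 CPM in Mll3 KO lungs, against 101, 110.2 and 102 CPM in wild-type lungs, and a log2 fold change of 0.27 ± 0.09 (SE, adjusted p = 0.272). Uhrf1 and Dnmt1, which dividing cells express most, were highest in Mll3 KO 1, as were the 8 cell cycle markers, whose sums were 1061, 768 and 723 CPM in Mll3 KO lungs, against 635, 749 and 688 CPM in wild-type lungs. The part of dividing cells in these levels was not tested.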

How the data were processed

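Per the labels' protocols, RNA of E18.5 lung lobes was enriched for polyadenylated RNA and made into strand-specific libraries read as single ends. Per the file headers, the authors counted reads per gene with featureCounts 1.6.3, using strand, on mm10 with an Ensembl annotation; the submitters' processing notes also name GSNAP and DESeq2 1.24.0. The deposited tables hold whole-number counts for 55421 genes and normalized values (a signal, counts divided by a size factor per library) for 24521 genes, from which whole counts were recovered for 100% of values. Another 92 lines with no gene identifier, with 1 read in all, were left out.

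Counts were tested with edgeR 4.0.16 in R 4.3.3 (TMM factors, low-count filter, robust quasi-likelihood test on genotype, Benjamini-Hochberg adjustment over 19042 genes, threshold 0.05). CPM uses TMM-adjusted totals, and RPKM divides it by the exonic length in the count table. Each SE was derived from the test, as the absolute log2 fold change over the square root of the quasi-likelihood F statistic. Log2 fold changes within a title prefix are log2 ratios of mean CPM, not edgeR estimates. They have no SE, and each rests on a single library of 1 genotype. The test was tried on simulated data. Alternatives were other size factors, other filters, DESeq2 1.42.0, limma 3.58.1 (voom, and log2 of the normalized values plus 1), terms for title prefix and for the Xist split, and each library left out.

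Every gene of the 41 is named; values in every library are given for the 8 highest by RPKM and the 10 with the lowest p, plus Sgce, Peg10, Rtl1, Rian and Kcnq1ot1, which were chosen after their values were seen. The genes and lists were chosen with earlier results of these data known. Replicate numbers follow accession order and pair nothing. Precision is limited by 3 libraries per genotype and, for genes under about 5 CPM, by read counts.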

Additional observations from a re-analysis of the deposited data

How the results depend on the processing

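Genes called over the whole table numbered 70, and 443 with no filter beyond 1 read, 357 by DESeq2, 8 by limma voom, 43 by limma on the normalized values, 625 with title prefix as a term, 32 with the Xist and Y-linked split as a term, 0 to 41 with 1 library left out, and 9 for Mll3 KO 1 and 3 against wild type 2 and 3, a comparison added after the data were seen. Mll3 KO 3 is alone on its side of the Xist split. Of the 41 imprinted genes, 1 was called, with no filter (Magel2), and 0 in the other 15 alternatives. DESeq2 called 1 other imprinted gene (Adam23) and the prefix term 1 (Qpct). Of the imprint regulators, no filter called 2 (Tet1 and Uhrf1) and the prefix term 2 (Dnmt1 and Hells). The cause of these differences was not tested.

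Of 653 log2 fold changes of single genes under 16 alternatives, 39 changed sign, in 23 genes, and 18 genes never did. With library size only, Meg3 was 0.0208 and Ube3a 0.0037. With the Xist split, Gnas was −0.0134 and Blcap −0.0401. Over Mll3 KO 1 and 3 against wild type 2 and 3, Airn was −0.0715, Ascl2 −0.098, Cdkn1c 0.0593, Mest 0.0095, Peg10 0.257, Plagl1 −0.0437, Sgce 0.0373 and Slc38a4 −0.0276. With each library left out in turn, the ranges that crossed 0 were Airn −0.0142 to 0.18, Asb4 −0.11 to 0.23, Blcap −0.0434 to 0.0779, Cdkn1c −0.16 to 0.0742, Gnas −0.0168 to 0.055, Kcnq1ot1 −0.32 to 0.16, Meg3 −0.16 to 0.19, Nap1l5 −0.0556 to 0.97, Ndn −0.0195 to 0.18, Nnat −0.0742 to 0.26, Peg12 −0.10 to 0.20, Peg3 −0.20 to 0.0802, Plagl1 −0.0467 to 0.0749, Rian −0.15 to 0.12, Rtl1 −1.07 to 3.19, Slc22a3 −0.20 to 0.14, Slc38a4 −0.0163 to 0.24, Ube3a −0.0766 to 0.0304 and Zdbf2 −0.0275 to 0.43. The labels give the genotypes no shared replicate numbers, so no fit on pairs was made; the title prefix, which holds both genotypes, was the term given above.

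With 3 libraries per genotype, small differences were not detectable. The estimates of Sgce, Nnat, Usp29, Rasgrf1 and Nap1l5 each depend mostly on 1 library. Those of Peg10 and Rtl1 depend on Mll3 KO 2 and wild type 1 together. Magel2, Nap1l5, Ascl2 and Phlda2 rest on 7 to 40 reads per library.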
